A study of Mus musculus with 3 samples.

Results

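HNF4A and FOXA2 were mapped by chromatin immunoprecipitation with sequencing in hepatoblasts, and this section concerns the HNF4A peaks that carry no FOXA2 peak of their own but have one close by. Such a site was an HNF4A peak on a nuclear chromosome that overlapped no FOXA2 peak by 1 bp or more, whose nearest FOXA2 peak centre lay over 1 kb and up to 10 kb away, and which lay more than 10 kb from any input region. The rule found 1887 of the 11700 nuclear HNF4A peaks, or 16.1%. They made up 21.4% (95% Wilson interval 20.6 to 22.3%) of the 8807 HNF4A peaks without FOXA2 overlap that met the same margin to input, and they covered 879 kb on 20 chromosomes. They are called neighbouring sites here. The input margin had removed 18 of 1905 candidates.

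The cells were wild-type C57BL/6 hepatoblasts from pooled livers at embryonic day 14.5, enriched by magnetic sorting for the surface protein DLK1. There was 1 library with an HNF4A antibody, 1 with a FOXA2 antibody and 1 of input chromatin, and no treatment. With 1 library each, no comparison has a replicate check and no p-value is given; the intervals cover counting error only, and peaks that lie close together are not independent. Each list gives a region and a whole-number score that no source used here defines, so scores are compared within a list only. HNF4A scores began at 16, FOXA2 scores at 11 and input scores at 12. A FOXA2 site under its threshold would be missed, and no neighbouring site is shown to lack FOXA2. In the same way, a FOXA2 peak said to be without HNF4A, or unshared, is one where no HNF4A peak was called. The depth of the libraries is unknown. No nuclear peak of HNF4A or FOXA2 overlapped an input region. The files hold positions only, so the sort could not be checked against marker expression, and gene names and sequences were not analysed here.

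HNF4A is a nuclear receptor that binds as a homodimer to direct repeats of its half-site and maintains hepatocyte gene expression. FOXA2 is a winged-helix factor that can bind its motif in closed chromatin and acts early in liver specification. Liver enhancers often hold sites for several such factors, and a gene can be served by several enhancers spaced over some kilobases. A site bound by a single factor next to a site of the other is therefore a different arrangement from joint occupancy of an element.

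The positions of both peak lists chose these sites, so their distances to FOXA2 are a description. The nearest FOXA2 centre lay a median of 4542 bp away (interquartile range 2502 to 6963 bp). The number of sites was highest at 1 to 2 kb, with 335, and was 161 at 9 to 10 kb. FOXA2 lay on the side of lower coordinates at 955 sites and on the other side at 932, so neither side prevailed (50.6% lower, interval 48.4 to 52.9%). A single FOXA2 centre lay within 10 kb of 1585 sites, or 84.0%. There were 2 such centres at 260 sites and 3 or more at 42, and 132 sites had FOXA2 on both sides.

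At the inner limit, the closest site kept by the rule was on chromosome 17 at 53716458 to 53717061 (mm9, score 23), 1000.5 bp from FOXA2, and the next was on chromosome 3 at 85775616 to 85776062 (score 61), at 1002.5 bp. The closest peak left out was on chromosome 10 at 93612336 to 93612719 (score 26), at 985 bp, and the next was on chromosome 6 at 149007332 to 149007814 (score 19), at 980.5 bp. At the outer limit, the last site kept was on chromosome 17 at 71184823 to 71185374 (score 16), at 9995.5 bp, and the one before it was on chromosome 2 at 150482953 to 150483333 (score 42), at 9990.5 bp. The first peak left out was on chromosome 1 at 54916759 to 54917233 (score 18), at 10027.5 bp, and the next was on chromosome 17 at 35858466 to 35859068 (score 16), at 10028 bp. Of these 8 peaks, the 2 highest scores stood just inside the limits, but so few peaks show no step there. The median score of HNF4A-only peaks was 23 at up to 1 kb and 24 at 1 to 2 kb. It was 23 both at 9 to 10 kb and at 10 to 20 kb.

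To see how often an HNF4A-only position comes to lie at this distance from FOXA2 in its own neighbourhood, all 8807 HNF4A-only centres were displaced by fixed steps of 10 kb. Over the 20 displacements of 10 to 100 kb either way, a median of 12.5% of positions were over 1 kb and up to 10 kb from a FOXA2 centre (range 10.5 to 19.0%), beside the 21.4% at the true positions. The highest values were those at 10 kb, 19.0% and 18.7%, and without them the median was 12.2% (10.5 to 16.4% over 18 displacements). At 100 kb, the farthest displacement, it was 10.5% on one side and 11.1% on the opposite side. These values describe the lists and are not a test, because a displaced position can fall where no peak could be called.

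The first comparison asked whether neighbouring sites differ in strength from the other 6920 HNF4A-only peaks. They were set against 238 peaks whose nearest FOXA2 centre lay up to 1 kb away without overlap, 4556 peaks with FOXA2 over 10 and up to 100 kb away, and 2126 peaks with FOXA2 over 100 kb away. The scores of both sets were much alike. Their median score was 23 (interquartile range 18 to 32.5), against 22 (18 to 30) in all other HNF4A-only peaks, a difference of 0.06 on the log2 scale. A neighbouring site scored higher in 52.2% of pairs with another HNF4A-only peak, with ties split evenly. If each site is taken as 1 draw, the Wilson interval of that share is 49.9 to 54.4%, which includes an even share. A share of pairs is not a count of draws, so this interval does not measure its error. It says nothing on how far the distributions overlapped.

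The difference lay in the upper tail. Scores of 47 or more, which mark the top 10.6% of the nuclear HNF4A list, were reached by 196 neighbouring sites, or 10.4% (9.09 to 11.8%). This is close to the share in the whole list, which includes the high-scoring peaks that overlap FOXA2. Among all other HNF4A-only peaks 547 reached it, or 7.90% (7.29 to 8.56%). The share was 11.8% (8.27 to 16.5%) with FOXA2 up to 1 kb away, 8.47% (7.70 to 9.32%) at over 10 to 100 kb and 6.26% (5.30 to 7.37%) beyond 100 kb. The intervals of neighbouring sites and of the group beyond 100 kb did not overlap. At the other end of the list, 10.8% of neighbouring sites (9.49 to 12.3%) stood at the lowest score of 16, against 11.2% (10.5 to 11.96%) of other HNF4A-only peaks. The share at the threshold was thus nearly the same.

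**Figure D1:**
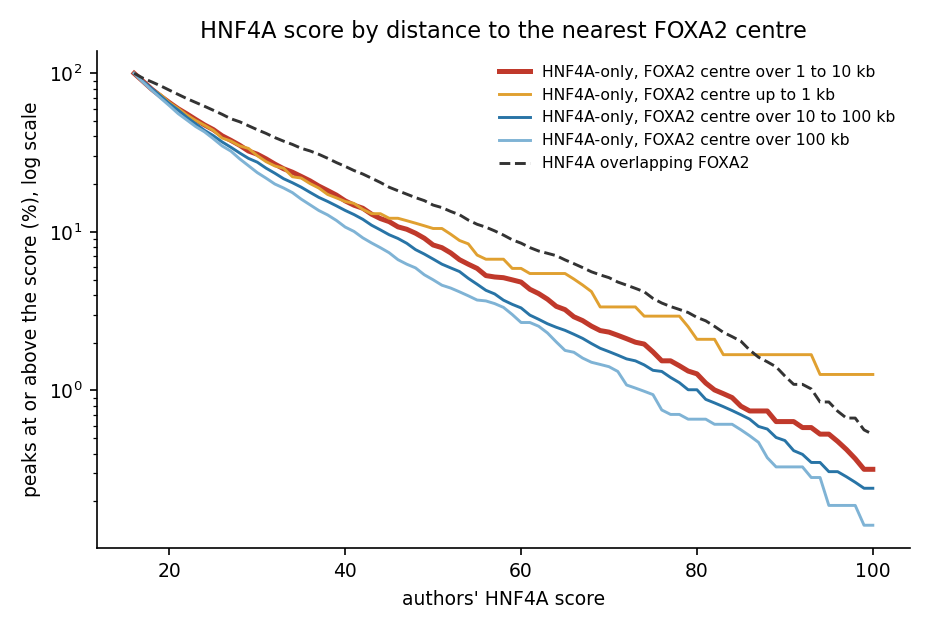
Percentage of HNF4A peaks (log scale) at or above each authors' score, for neighbouring sites (FOXA2 centre over 1 to 10 kb) and for the other groups. At a score of 47 neighbouring sites are at 10.4%, peaks over 100 kb from FOXA2 at 6.26% and peaks overlapping FOXA2 at 17.3%.

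Neighbouring sites scored lower than HNF4A peaks that overlap FOXA2. The 2839 overlapping peaks with the same input margin had a median score of 27 (20 to 40), and a neighbouring site was the higher in 40.0% of pairs with them. Of the overlapping peaks 17.3% (15.9 to 18.7%) reached 47, against 10.4% of neighbouring sites. The overlapping peaks were not used by the rule except to be left out, so this comparison restates a property of overlap from the side of the neighbouring sites.

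Within 1 to 10 kb the score varied little with distance. The median was 24 at 1 to 2 kb, 24 at 2 to 3 kb, 21 at 7 to 8 kb and 23 at 9 to 10 kb. Across the 1887 sites the Spearman correlation of score with distance was -0.05, as a description of points that share a library and threshold. Beyond the outer limit the share of peaks reaching 47 was 10.2% (8.56 to 12.02%) at 10 to 20 kb, 8.72% (7.54 to 10.1%) at 20 to 50 kb and 6.76% (5.58 to 8.17%) at 50 to 100 kb. The upper limit of 10 kb therefore does not mark a step in score: peaks at 10 to 20 kb had the same median of 23.

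**Figure D2:**
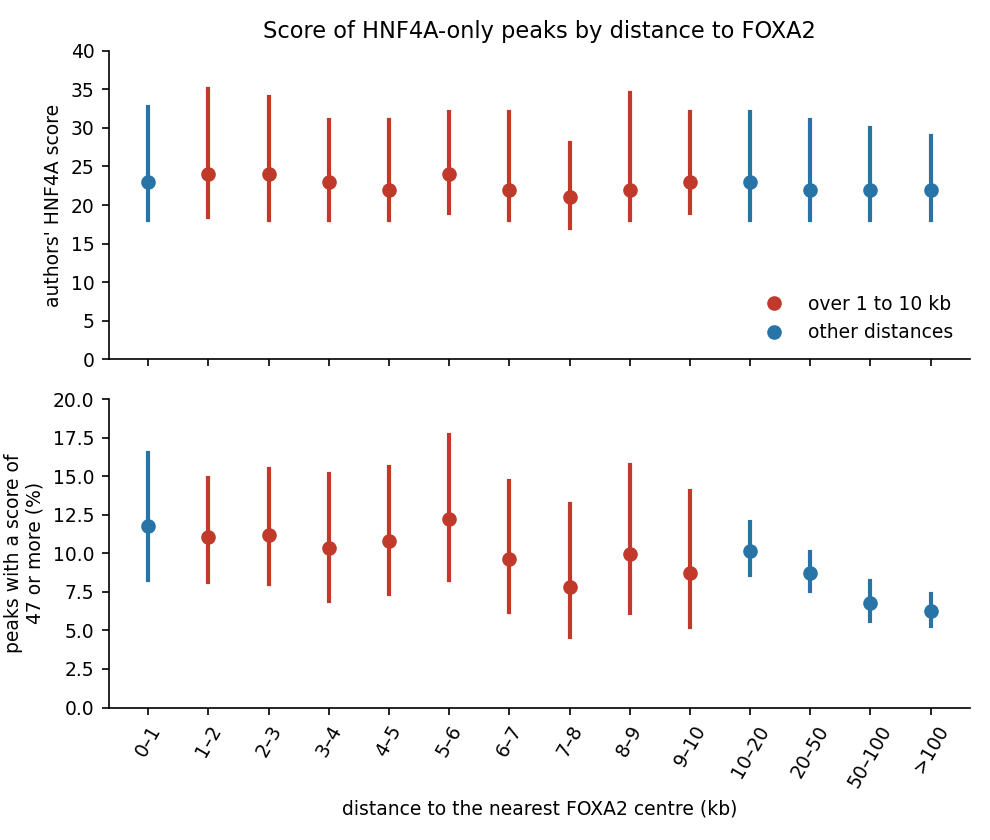
Above, median (point) and interquartile range (line) of the HNF4A score of HNF4A-only peaks by distance to the nearest FOXA2 centre in kb; below, percentage with a score of 47 or more with its 95% Wilson interval. Medians stay between 21 and 24 in every bin, and the lower panel falls to 6.26% beyond 100 kb.

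The same scores can be read the other way, which adds no further support. Neighbouring sites were a larger part of the HNF4A-only peaks with the highest scores. They made up 21.5% (19.7 to 23.5%) of HNF4A-only peaks with scores of 16 to 17 and 19.6% (17.6 to 21.8%) at 18 to 19. The share was 23.3% (21.2 to 25.7%) at 32 to 47 and 26.8% (23.6 to 30.2%) at 48 or more. At scores of 20 to 23 it was 19.5% and at 24 to 31 it was 21.01%, so the share changed little up to a score of 31.

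The widths of neighbouring sites were much like those of the rest. Their median was 431 bp (interquartile range 365 to 535 bp), against 425 bp (362 to 523 bp) in all other HNF4A-only peaks, and a neighbouring site was the wider in 51.4% of pairs. The peaks with FOXA2 up to 1 kb away were narrower, with a median of 395 bp (346 to 466 bp). A neighbouring site was wider in 59.2% of pairs with these. Wide peaks that close would tend to overlap FOXA2 and leave that group, so its width is tied to the rule. Peaks over 1 kb wide numbered 11, or 0.583% (0.326 to 1.04%), among neighbouring sites and 50, or 0.723% (0.549 to 0.951%), among the others. Score and width were weakly and inversely related in both sets, with a Spearman rho of -0.12 across the 1887 sites and -0.09 across the 6920 others.

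The 3 widest sites all scored close to the threshold. The widest was on chromosome 19 at 4496620 to 4498089, with 1470 bp and a score of 18. The next was on chromosome 2 at 103434617 to 103435954, with 1338 bp and a score of 17, and it had no other HNF4A centre within 10 kb. The third was on chromosome 4 at 123324239 to 123325515, with 1277 bp and a score of 20. None of their FOXA2 neighbours, with scores of 11, 22 and 15, overlapped HNF4A.

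The clearest difference was in how many other HNF4A peaks lay close by. Another HNF4A centre lay within 10 kb of 1298 neighbouring sites, or 68.8% (66.7 to 70.8%), against 2028 other HNF4A-only peaks, or 29.3% (28.2 to 30.4%). The mean number of such centres was 1.08 at neighbouring sites and 0.384 at the others. Among the others, the 238 peaks with FOXA2 up to 1 kb away resembled neighbouring sites, with 63.4% (57.2 to 69.3%) and a mean of 0.95. The share was 30.0% at over 10 to 100 kb and 23.9% beyond 100 kb. The difference was thus mainly from peaks farther from FOXA2, and much of it follows from the rule. HNF4A peaks that overlap FOXA2 lie, by definition, at FOXA2, so they can hardly occur within 10 kb of a peak whose nearest FOXA2 centre is beyond that distance. Peaks shared with FOXA2 lay within 10 kb of 943 neighbouring sites (50.0%) and of 108 peaks (45.4%) with FOXA2 up to 1 kb away. They lay within 10 kb of only 3 of the 4556 peaks at over 10 to 100 kb.

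Counting only other HNF4A-only peaks leaves the shared peaks out, and a smaller difference remained. The rule still links nearness to FOXA2 with nearness to HNF4A, so the shares are a description. At least 1 other HNF4A-only peak lay within 10 kb of 736 neighbouring sites, or 39.0% (36.8 to 41.2%). In all other HNF4A-only peaks the share was 28.3% (27.2 to 29.4%). It was 35.3% (29.5 to 41.6%) with FOXA2 up to 1 kb away, 30.0% (28.6 to 31.3%) at over 10 to 100 kb and 23.9% (22.2 to 25.8%) beyond 100 kb. The share declined with distance to FOXA2 outside the limit, at 35.8% (33.1 to 38.6%) for 10 to 20 kb and 24.8% (22.7 to 27.1%) for 50 to 100 kb. Several sites around 1 FOXA2 peak count each other here, so these intervals are too narrow.

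The density also depended on the distance from the site itself. Between 1 and 2 kb from a neighbouring site there were 34.2 other HNF4A-only centres per Mb, against 26.3 around peaks at over 10 to 100 kb from FOXA2 and 24.9 around those beyond 100 kb. At 5 to 7.5 kb the values were 24.9, 16.8 and 12.3 per Mb. At 75 to 100 kb they were 9.51, 10.0 and 5.44 per Mb, so at that range neighbouring sites no longer exceeded the peaks at over 10 to 100 kb. HNF4A peaks shared with FOXA2 had 38.4 centres per Mb at 2 to 3 kb from a neighbouring site and 3.21 per Mb at 75 to 100 kb. Within the first 1 kb, where a broad region could be split into several calls, the density of HNF4A-only centres was 23.1 per Mb at neighbouring sites and 22.6 and 20.7 per Mb in the groups at over 10 to 100 kb and beyond 100 kb. These 3 values differed little. The high density at 1 to 2 kb was not particular to neighbouring sites. Around peaks with FOXA2 up to 1 kb away there were 37.8 HNF4A-only centres per Mb at 1 to 2 kb. At 5 to 7.5 kb from those peaks there were 19.3 per Mb, fewer than at neighbouring sites. At 7.5 to 10 kb there were 26.9 per Mb, against 23.1 at neighbouring sites. The order of these 2 groups thus changed from bin to bin. The group with FOXA2 up to 1 kb away held only 238 peaks, and no interval was computed for the densities.

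**Figure D3:**
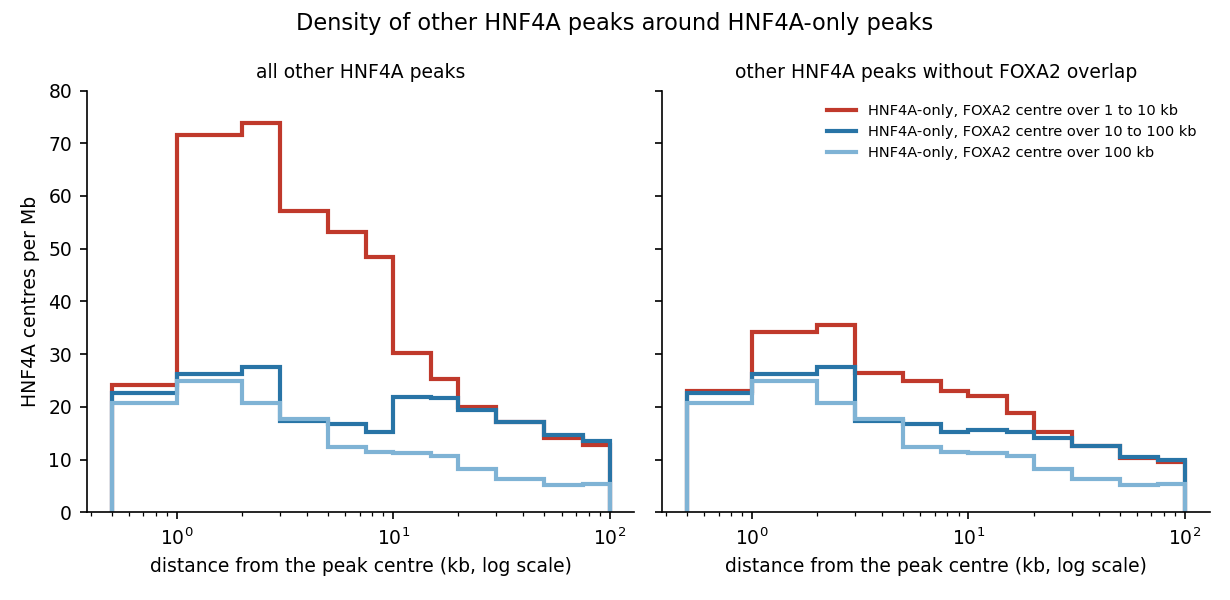
Other HNF4A centres per Mb by distance from the peak centre in kb (log scale, the first step of 0 to 1 kb cut off at its left), for neighbouring sites (FOXA2 centre over 1 to 10 kb) and for HNF4A-only peaks farther from FOXA2, counting all other HNF4A peaks (left) or only those without FOXA2 overlap (right). The line of neighbouring sites is at 73.9 per Mb at 2 to 3 kb when all are counted and at 35.5 per Mb without FOXA2 overlap.

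Displacing the neighbouring sites gave the local level. Over the 20 displacements of 10 to 100 kb, 39.0% at the sites compared with a median of 17.4% of displaced positions that had an HNF4A-only centre within 10 kb, not counting the site itself (range 14.1 to 34.8%). For the other HNF4A-only peaks the share was 28.3% at the peaks, and the median after displacement was 15.6% (13.7 to 25.2%). The highest values came from displacements of 10 kb, whose windows overlap those at the true place, with 33.8% and 34.8% for neighbouring sites and 24.9% and 25.2% for the others. From 20 kb on, the medians were 17.0% (14.1 to 28.0%) and 15.1% (13.7 to 20.5%) over 18 displacements. HNF4A-only peaks of both sets thus lay near each other more often than displaced positions did. The neighbourhoods of neighbouring sites also held slightly more HNF4A-only peaks than those of all others pooled. That pool includes the peaks beyond 100 kb from FOXA2, which had 5.44 HNF4A-only centres per Mb at 75 to 100 kb. Peaks at over 10 to 100 kb had 10.0 there and neighbouring sites 9.51.

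Scores were then compared separately for peaks with and without close HNF4A company. Among the 589 neighbouring sites without another HNF4A centre within 10 kb, the median score was 22 (18 to 31), against 22 (18 to 29) for 4892 other HNF4A-only peaks that also stood alone. In this subset 9.85% of neighbouring sites (7.69 to 12.5%) reached 47, against 6.46% of the others (5.80 to 7.18%). Among the 1298 neighbouring sites with another HNF4A centre nearby, 10.6% (9.07 to 12.4%) reached it, against 11.4% (10.1 to 12.8%) of the 2028 others with one. Against all others pooled, the higher upper tail of neighbouring sites was therefore seen among peaks that stood alone and not among grouped peaks. Of the others that stood alone, 9.20% (4.73 to 17.1%) reached 47 with FOXA2 up to 1 kb away. The share was 7.06% (6.22 to 8.00%) at over 10 to 100 kb and 5.13% (4.16 to 6.32%) beyond 100 kb. Only the interval beyond 100 kb did not overlap that of neighbouring sites. Whether these contrasts differ from each other was not tested.

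**Figure D4:**
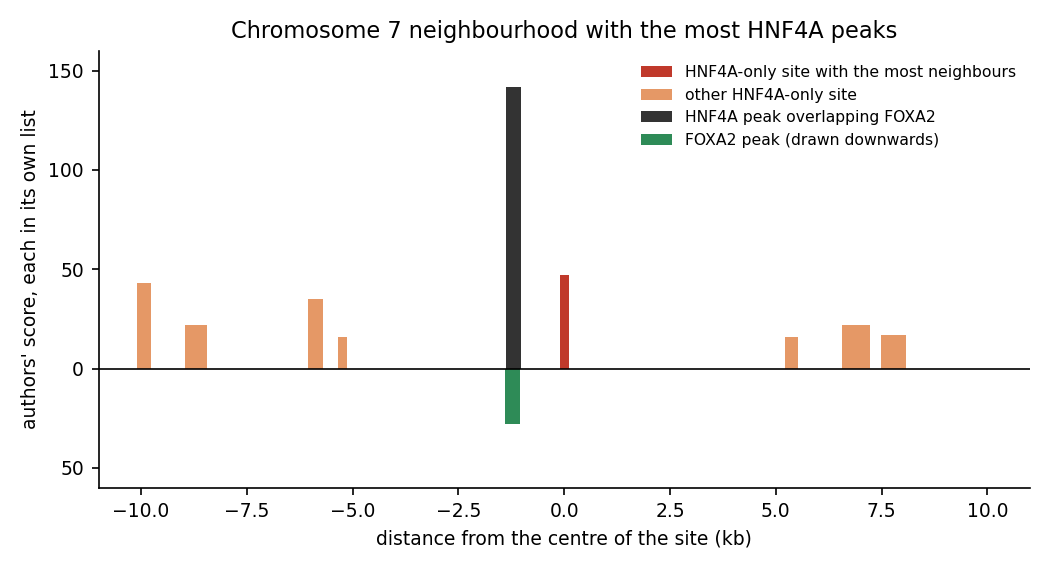
Authors' score against distance in kb from the neighbouring site with the most other HNF4A peaks within 10 kb; bar width is peak width, HNF4A bars point up and the FOXA2 bar points down, each with the score of its own list. The site (score 47) stands beside an HNF4A peak of score 142 that overlaps FOXA2, with 7 further HNF4A-only peaks of scores 16 to 43.

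The site with the most HNF4A company lay on chromosome 7 at 20271976 to 20272183, with a score of 47 and a width of 208 bp. It had 8 other HNF4A centres within 10 kb. At 1202.5 bp from it stood the HNF4A peak at 20270693 to 20271061 (score 142), which overlaps the FOXA2 peak at 20270683 to 20271041 (score 28). The other 7 were HNF4A-only peaks, of which those at 20261979 to 20262326 (score 43) and 20266031 to 20266378 (score 35) were highest. The next most crowded sites belonged to the same stretch, at 20278646 to 20279305 (score 22) and 20279577 to 20280163 (score 17), with 6 other HNF4A centres each. Their nearest FOXA2 peak, at 20286205 to 20286633 (score 30), overlapped an HNF4A peak of score 72. In this stretch the HNF4A peaks at FOXA2 were thus the strongest, and the sites between them were weaker.

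Joined where their centres lay at most 10 kb apart, the 1887 sites formed 1566 groups. A single site made up 1310 of them, 206 had 2 sites, 41 had 3 and 9 had 4 or more. The largest was the stretch on chromosome 7, with 9 neighbouring sites between 20261979 and 20284698. Next, named after its values were seen, came chromosome 17 at 28819562 to 28834647, with 5 sites of scores 17 to 53.

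The second comparison concerned the FOXA2 peaks beside these sites. The 1887 sites had 1542 different nearest FOXA2 peaks: 1251 served 1 site, 246 served 2, 38 served 3 and 7 served 4 or more, with at most 6. Many of these FOXA2 peaks were themselves occupied by HNF4A. Counted once each, 695 of 1542, or 45.1% (42.6 to 47.6%), overlapped another HNF4A peak, against 29.6% (28.5 to 30.6%) of the 7287 other FOXA2 peaks over 10 kb from input. Whether the FOXA2 neighbour carried HNF4A was not part of the rule, but FOXA2 peaks in regions rich in HNF4A are more readily chosen by it.

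FOXA2 peaks with and without HNF4A can be compared directly. An HNF4A-only peak lay over 1 kb and up to 10 kb away from 28.9% (27.3 to 30.6%) of 2849 FOXA2 peaks shared with HNF4A, against 16.8% (15.8 to 17.7%) of 5979 FOXA2 peaks without HNF4A. The order was the same within each range of FOXA2 score. At scores of 11 to 14 the shares were 27.4% (24.5 to 30.5%) for shared and 15.5% (14.3 to 16.8%) for unshared FOXA2 peaks. At 15 to 21 they were 30.5% (27.3 to 33.9%) and 16.8% (15.1 to 18.7%), and at 22 or more 29.0% (26.5 to 31.6%) and 20.1% (17.9 to 22.5%). The HNF4A-only peaks counted here need not have that FOXA2 peak as their nearest.

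The scores of these FOXA2 neighbours were a little above the rest, with a median of 17 (13 to 24.75) against 15 (12 to 22). Part of this went with sharing. Among shared FOXA2 peaks the medians were 20 (14 to 31) for neighbours and 19 (14 to 29) for the others. Among FOXA2 peaks without HNF4A they were 15 (12 to 21) and 14 (12 to 19). The score of a neighbouring site had no relation with that of its FOXA2 neighbour, with a Spearman rho of -0.01 across 1887 sites. For the 2839 HNF4A peaks that overlap FOXA2, the rho with the nearest FOXA2 score was 0.13.

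Next, 3 arrangements were told apart. At 866 sites (45.9%, 43.7 to 48.1%) the FOXA2 neighbour was shared with another HNF4A peak. A site called for both factors thus stood next to a site called for HNF4A only. At 433 sites (22.9%, 21.1 to 24.9%) the FOXA2 neighbour carried no called HNF4A peak, but another HNF4A centre lay within 10 kb. At 588 sites (31.2%, 29.1 to 33.3%) the FOXA2 neighbour carried no called HNF4A peak and no other HNF4A centre lay within 10 kb. Median scores of the sites were 23 (18 to 33.75), 23 (18 to 33) and 22 (18 to 31) in that order. Scores of 47 or more were reached by 10.2% (8.32 to 12.4%), 11.5% (8.87 to 14.9%) and 9.86% (7.71 to 12.5%). The 3 arrangements did not differ in score beyond these intervals, and their median distances to FOXA2 were 4451, 4481 and 4698 bp.

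Where the FOXA2 neighbour was shared, both HNF4A peaks could be set side by side. The neighbouring site had a median score of 23 (18 to 33.75), and the HNF4A peak at FOXA2, the highest where several overlapped it, had 30 (21 to 45). The neighbouring site was lower in 538 of 866 cases, or 62.1% (58.8 to 65.3%), higher in 310, or 35.8% (32.7 to 39.0%), and tied in 18. The median difference was -0.27 on the log2 scale (interquartile range -1 to 0.28). Using only the 553 FOXA2 peaks with a single neighbouring site, that site was lower in 338 (61.1%) and higher in 204 (36.9%). Against all HNF4A peaks overlapping FOXA2, wherever they lay, a neighbouring site was the higher in 40.0% of pairs, with ties split evenly. The local order was thus close to the general one. Taking the highest of several peaks at FOXA2 also favours that side, and whether the local pairing adds anything was not tested. The scores of both peaks showed no relation across the 866 cases (Spearman rho -0.01), so a strong HNF4A peak at FOXA2 did not go with a strong or a weak site beside it.

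**Figure D5:**
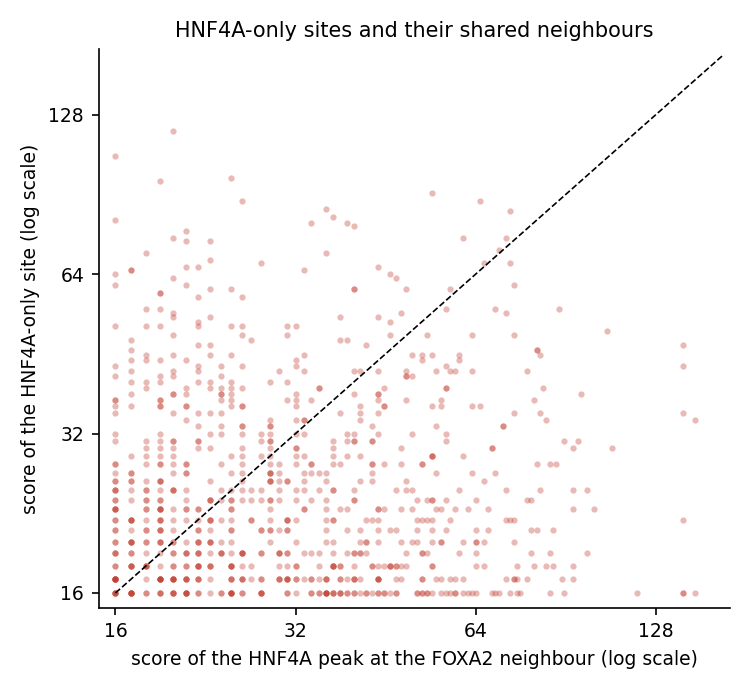
Score of each neighbouring site against the score of the HNF4A peak at its FOXA2 neighbour (both log scales, 866 cases), with the line of equal scores dashed. More points lie below the line (538) than above it (310), and they show no trend.

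The 10 highest neighbouring sites had scores of 95 to 161, and their FOXA2 neighbours spanned scores of 11 to 40. The highest, on chromosome 3 at 108517756 to 108518119 (score 161), also held the highest score of the nuclear HNF4A list. Its FOXA2 neighbour at 108515678 to 108516072 scored 14 and carried no HNF4A, and another HNF4A-only peak at 108525032 to 108525720 scored 27. The second, on chromosome 5 at 65197486 to 65197891 (score 138), had no other HNF4A centre within 10 kb, and its FOXA2 neighbour at 65202904 to 65203581 scored 12. Such FOXA2 scores were ordinary, since all FOXA2 peaks over 10 kb from input had a median of 15 (12 to 22).

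Next in score was chromosome 11 at 55021915 to 55022247 (score 119). It lay between 2 further HNF4A-only peaks of scores 16 and 48, and 1584.5 bp from a FOXA2 peak at 55023515 to 55023816 (score 35). That FOXA2 peak overlapped an HNF4A peak of score 20. A second FOXA2 peak, at 55028449 to 55028755 (score 46), carried no HNF4A. The fourth, on chromosome 17 at 29625563 to 29625920 (score 107), stood 4334.5 bp from a FOXA2 peak of score 13 that overlapped an HNF4A peak at the lowest score, 16. In both cases the HNF4A-only site far exceeded the HNF4A peak at FOXA2.

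On chromosome 2, the site at 147770021 to 147770499 (score 102) had an HNF4A-only peak of score 50 at a distance of 1704 bp, while its FOXA2 neighbour at 147774913 to 147775148 stood at 11, the threshold of its list. On chromosome 11, the sites at 7097400 to 7097794 (score 102) and 7092737 to 7093068 (score 95) lay 4694.5 bp apart. Both had the FOXA2 peak at 7090437 to 7090762 (score 14) as nearest neighbour. No other FOXA2 peak was nearest to 2 of the 10 sites.

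On chromosome 4, the site at 100968429 to 100968767 (score 98) was joined by HNF4A-only peaks of scores 26 and 16 and stood 6745.5 bp from a FOXA2 peak of score 14. The site on chromosome 1 at 191866051 to 191866535 (score 97) lay 6261.5 bp from a FOXA2 peak of score 20 that overlapped an HNF4A peak of score 25. The site on chromosome 5 at 140593972 to 140594343 (score 96) had FOXA2 peaks of scores 40 and 37 on the same side, and the nearer one overlapped an HNF4A peak of score 19. Of the 10 sites, 4 thus had a shared FOXA2 neighbour, and each of these 4 scored above the HNF4A peak there. Sites chosen for a high score would tend to exceed their neighbours.

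Neighbouring sites were found on every autosome and on X, with 10 on X and 0 on Y. Their part of the HNF4A-only peaks ranged over the autosomes between 18.4% (15.3 to 22.03%), seen on chromosome 6, and 30.1% (25.4 to 35.3%), seen on chromosome 12. On X it was 11.6% (6.44 to 20.1%) of 86 peaks. In 15 of the 19 autosomes a neighbouring site scored higher than another HNF4A-only peak in more pairs than not, and the lowest and highest shares were 49.4% (chromosome 10) and 56.4% (chromosome 11). An HNF4A-only peak within 10 kb was more frequent at neighbouring sites on 17 of the 19. The exceptions were chromosome 1, with 24.8% of neighbouring sites and 30.2% of the others, and chromosome 14, with 26.6% and 29.4%.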

How the data were processed

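HNF4A ChIP, FOXA2 ChIP and input chromatin, 1 library each, were deposited as 1 headerless list of regions per library. The authors deposited a whole-number score for each region, of unstated definition and normalization. Not given in the sources used here are the aligner, caller and threshold. Per the submitters' processing notes, coordinates refer to mm9. Scores were used as deposited, within a list. Regions were read as 1-based, closed intervals, chromosome prefixes were removed, and 3 mitochondrial HNF4A and 8 mitochondrial input regions were left out. Depth is unknown.

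Distances run between peak centres, and the input margin between edges. Shares of peaks carry 95% Wilson intervals. Members, comparison sets and lists were chosen with earlier results of these data known. Named regions are the 10 highest-scoring sites, the 3 with the most HNF4A centres within 10 kb, the 3 widest, and those at the limits of the rule. Planned motif and gene analyses need tables of build mm9 and were not carried out. Distance, overlap and pair-share functions were tested on simulated data (1000 peaks, 0 misclassified). Alternative limits, margins, overlap definitions and score thresholds were tried. Computation used Python 3.11.15 with scipy 1.17.1, numpy 2.4.6 and pandas 2.3.3, and plots matplotlib 3.10.9.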

Additional observations from a re-analysis of the deposited data

How the results depend on the processing

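Under 14 alternative settings 94 values were recomputed. Of these, 74 stayed within the interval of the reported value (for the number of sites, within 1.5 times), 20 moved and 0 reversed. Only shares of pairs and differences between sets could be labelled reversed, not the numbers of sites or the plain shares. The sign of the density difference is also tied to the rule where shared HNF4A peaks are counted. The absence of reversals is therefore weak support. For shares of pairs the interval took each site as 1 draw, so it served only as a working range. No paired analysis was possible because each antibody has 1 library. The number of sites was 1047 with an outer limit of 5 kb, 3068 with 20 kb and 1235 with HNF4A scores of at least 20, since these limits admit fewer or more peaks. The share of sites with another HNF4A centre nearby was 56.2% with the outer limit of 20 kb, 57.7% with HNF4A scores of at least 20 and 73.9% with FOXA2 scores of at least 15. It was 44.6% for a window of 5 kb, 88.9% for 50 kb and 39.0% counting unshared HNF4A peaks only. The excess over other HNF4A-only peaks was 36.4 percentage points with an outer limit of 5 kb, 28.3 with 20 kb, 34.3 with HNF4A scores of at least 20 and 42.2 with FOXA2 scores of at least 15, beside 39.5 as reported. It was 24.7 for a window of 5 kb, 21.4 for 50 kb and 10.7 counting unshared peaks only. With HNF4A scores of at least 20, 15.9% of sites scored 47 or more, because low scores were removed. The nearest FOXA2 peak was shared at 37.0% of sites with that threshold, 13.2 points above the other FOXA2 peaks, and at 54.3% with FOXA2 scores of at least 15. The window and the kind of peak counted change the share with another HNF4A centre nearby by construction. With HNF4A scores of at least 20, fewer HNF4A peaks remain to lie near a site or at FOXA2. Where no reason is given, the cause was not tested. Unknown depth limits every statement that FOXA2 or HNF4A was not called at a site.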
